A study of Homo sapiens with 16 samples.

Results

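Keratins are the intermediate filament proteins of epithelial cells, and the 55 genes described here are all RefSeq protein-coding genes of GRCh38 named KRT with a number and an optional letter, out of 19974 protein-coding genes on chromosomes 1 to 22 and X. Genes of keratin-associated proteins were not taken. The 27 genes on chromosome 12 form the type II cluster, with KRT18 at its edge as a type I gene, and the 28 genes on chromosome 17 form the type I cluster. By the standard nomenclature 6 genes are keratins of simple epithelia, 22 of epidermis and other stratified epithelia, 9 of the root sheath of the hair follicle and 17 of the hair shaft, while KRT222 was kept apart.

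A type I keratin pairs with a type II keratin to build a filament, and each kind of epithelium makes its own pairs. KRT8 and KRT18 are the pair of hepatocytes, KRT7 and KRT19 mark bile duct cells, KRT5 and KRT14 the basal layer of the epidermis, and KRT1 and KRT10 the layers above it. Polycomb repressive complex 2 methylates histone H3 at lysine 27 through its enzyme EZH2, JARID2 is one of its DNA-binding partners, and H3K27me3 is the mark the complex leaves on silent genes.

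Chromatin immunoprecipitation with sequencing (ChIP-seq) was done in 2 human liver lines. JARID2 was mapped in 2 libraries of HepG2, which derives from a hepatocellular carcinoma, and in 2 of THLE-2, an immortalised epithelial line from liver without tumour, where H3K27me3 and EZH2 were mapped in 2 libraries each as well. Each of these 8 libraries has an input library of its own, both lines are single established lines without treatment, and the series calls the replicates of a group biological. H3K27me3 and EZH2 in HepG2 were not analysed here, so the mark was compared with its enzyme within THLE-2 and JARID2 between the lines.

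The libraries differed in depth and in peaks. HepG2 JARID2 had 7.95 and 14.6 M tags with 15738 and 4090 peaks, THLE-2 JARID2 11.7 and 13.0 M with 5356 and 5532, H3K27me3 39.0 and 38.1 M with 46198 and 90524, and EZH2 29.6 and 32.4 M with 2112 and 3690. HepG2 replicate 2, with few peaks at genes, limits every count that asks for both HepG2 replicates. Among 7 liver genes looked at as a description of the line, TTR and HNF4A held an H3K27me3 peak in both THLE-2 replicates. That is 28.6%, against 6.75% of all protein-coding genes. ALB held one in replicate 2 alone, with a fold of 6.12, and no JARID2 or EZH2 list had a peak at any of the 7. Of the epithelial genes EPCAM and CDH1, EPCAM had no peak. CDH1 had only a JARID2 peak in HepG2 replicate 1, with a fold of 11.38.

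H3K27me3 lay at the gene ends of 20 keratin genes in both THLE-2 replicates, a share of 36.4% against 6.75% of all protein-coding genes. No keratin gene had a peak in both replicates of HepG2 JARID2, THLE-2 JARID2 or THLE-2 EZH2, where the shares of all protein-coding genes were 0.165%, 0.355% and 4.88%. With shares that small for JARID2, a count of 0 among 55 genes does not set the keratins apart. A gene counts when a peak overlaps the 2 kb on either side of an annotated gene end, and the lower end is the one with the smaller coordinate. Of the 20, 7 were keratins of the hair root sheath, 11 of stratified epithelia and 1 of the hair shaft, and the last was KRT222. No keratin of simple epithelia, KRT8 and KRT18 of the hepatocyte included, had an H3K27me3 peak in either replicate.

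The DNA in front of the keratin genes is shown first, because its base content differs from that of most promoters. RefSeq promoters of GRCh38.p14 were at hand for 34 of the 55 genes, and only the 250 bases before the transcription start were used. In the sequences below, on the minus strand of GRCh38.p14 and read 5′ to 3′, capitals mark every CG dinucleotide and the motif TATAAA. The first 3 genes had H3K27me3 at their ends in both replicates and the last 3 in neither. The printed bases of KRT76 lay in H3K27me3 peaks at 100% in both replicates. Those of KRT28 did so at 74.4% and 42.0%, and those of KRT9 at 0% in replicate 1 and 100% in replicate 2. KRT76 (chr12:52777346-52777595) is a keratin of the palate, KRT28 (chr17:40799960-40800209) one of the inner root sheath, KRT9 (chr17:41572060-41572309) one of palm and sole, KRT10 (chr17:40822615-40822864) and KRT5 (chr12:52520395-52520644) are keratins of the epidermis, and KRT31 (chr17:41397609-41397858) one of the hair shaft.
KRT76: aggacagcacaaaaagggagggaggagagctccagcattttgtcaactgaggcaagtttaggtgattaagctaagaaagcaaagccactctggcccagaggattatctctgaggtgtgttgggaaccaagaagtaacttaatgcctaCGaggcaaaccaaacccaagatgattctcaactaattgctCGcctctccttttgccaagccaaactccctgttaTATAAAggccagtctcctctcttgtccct
KRT28: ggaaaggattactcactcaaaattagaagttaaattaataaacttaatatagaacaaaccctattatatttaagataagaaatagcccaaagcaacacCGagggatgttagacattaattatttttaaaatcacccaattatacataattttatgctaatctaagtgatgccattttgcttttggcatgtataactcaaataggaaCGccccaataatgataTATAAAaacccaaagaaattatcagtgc
KRT9: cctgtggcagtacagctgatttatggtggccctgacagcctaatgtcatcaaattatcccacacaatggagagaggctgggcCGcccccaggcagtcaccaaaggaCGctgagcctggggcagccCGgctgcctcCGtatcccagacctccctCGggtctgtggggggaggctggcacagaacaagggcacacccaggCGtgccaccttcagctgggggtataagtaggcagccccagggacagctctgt
KRT10: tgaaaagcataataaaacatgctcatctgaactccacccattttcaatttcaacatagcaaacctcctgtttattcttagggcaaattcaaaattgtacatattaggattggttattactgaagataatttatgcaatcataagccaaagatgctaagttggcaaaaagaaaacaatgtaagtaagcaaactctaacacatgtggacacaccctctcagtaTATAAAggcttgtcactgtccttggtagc
KRT5: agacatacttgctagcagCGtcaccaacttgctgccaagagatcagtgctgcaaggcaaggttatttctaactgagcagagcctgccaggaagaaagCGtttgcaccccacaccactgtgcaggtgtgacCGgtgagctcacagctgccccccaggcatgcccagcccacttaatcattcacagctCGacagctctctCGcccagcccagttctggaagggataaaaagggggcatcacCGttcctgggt
KRT31: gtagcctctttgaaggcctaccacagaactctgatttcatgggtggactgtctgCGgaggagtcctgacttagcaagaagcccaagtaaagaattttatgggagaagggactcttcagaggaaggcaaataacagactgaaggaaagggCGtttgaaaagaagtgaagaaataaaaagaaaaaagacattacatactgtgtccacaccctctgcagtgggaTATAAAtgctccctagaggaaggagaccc

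These stretches hold few CG dinucleotides, whether or not the gene was marked. The 34 keratin promoters held a median of 2.00 CG dinucleotides (range 0 to 7), against 17 over the promoters of 15812 protein-coding genes. Their median GC content was 44.6%, against 62.0%. None of the 34 was CpG-rich, here taken as an observed over expected CpG ratio of at least 0.6 with at least 50% GC, while 60.2% of all promoters were. Among the 330 promoters that H3K27me3 peaks overlapped in both replicates 8.18% were CpG-rich, and among the 612 that EZH2 peaks overlapped in both 78.8% were.

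The letters TATAAA, the core of a TATA box, stood on the gene's own strand between 40 and 20 bases before the start in 15 of 34 keratin promoters, a share of 44.1%, against 3.66% of all promoters of the same length. KRT76, KRT28, KRT10 and KRT31 are among them, at 29, 28, 29 and 29 bases before the start. KRT5 and KRT9 lack these letters anywhere in the window. Anywhere in the window, the motif was present in all 6 keratin promoters that H3K27me3 peaks overlapped in both replicates and in 10 of the 22 that they overlapped in neither. Between 40 and 20 bases before the start, it stood in 4 of these 6 and in 9 of these 22. Of all promoters, 6.70% held it anywhere in the window. Among the 330 of all genes that H3K27me3 peaks overlapped in both replicates, 12.7% held it anywhere and 8.79% between 40 and 20 bases before the start. These are matches of letters in a window and were not tested against the peaks.

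**Figure D1:**
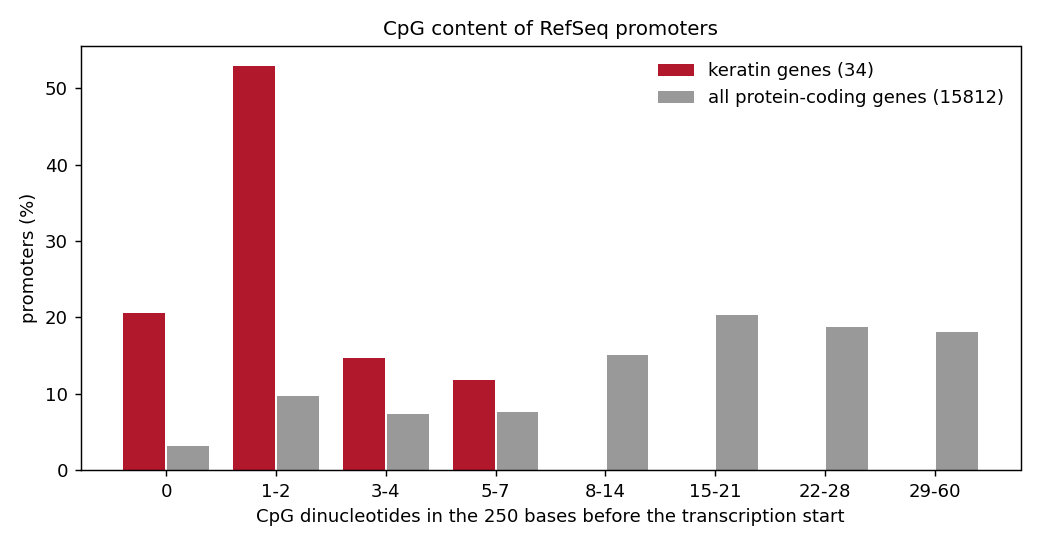
The percent of promoters (vertical axis) is plotted by the number of CpG dinucleotides in the 250 bases before the transcription start (horizontal axis), for 34 keratin genes in red and 15812 protein-coding genes in grey. No keratin promoter held more than 7, whereas the 4 highest classes hold 15.1%, 20.3%, 18.7% and 18.1% of all promoters.

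The simple epithelial keratins were the class without H3K27me3. KRT8 and KRT18 lie side by side at the end of the type II cluster (chr12:52897191-52949860 and chr12:52948855-52952906, with overlapping annotated extents). The nearest H3K27me3 peak below KRT8 ended 42.5 kb away in replicate 1 and 69.4 kb away in replicate 2, and the nearest above began 747 kb away in both. KRT7 lay 132 and 91.8 kb from the nearest mark, which was above it in both replicates. KRT19 (chr17:41523617-41528308) had peaks of the mark on either side, no closer than 32.7 kb. KRT20, an intestinal keratin, and KRT23 had none either. At 6 genes, 0 marked genes is a small count, and 7.70% and 19.1% of all protein-coding genes were marked in replicates 1 and 2.

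JARID2 peaks at this class were single. KRT19 had a JARID2 peak at its upper gene end in THLE-2 replicate 2, with 20 tags and a fold enrichment of 5.64 (the authors' ratio of immunoprecipitate over local input), above only 2.32% of the peaks of that list. The other 7 libraries had none there. Inside KRT7, but away from its ends, lay 1 JARID2 peak of HepG2 replicate 1 and 1 of THLE-2 replicate 1, with folds of 7.17 and 6.78 and at different places. Inside KRT8 HepG2 replicate 1 had 2 JARID2 peaks with folds of 4.69 and 7.22, and no other library had any. None of these recurred in the second replicate.

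The epidermal and other stratified keratins were divided. H3K27me3 lay at 12 of 22 genes in replicate 1, at 11 in replicate 2 and at 11 in both, which is 54.5%, 50% and 50% against 7.70%, 19.1% and 6.75% of all protein-coding genes. On chromosome 12 the marked genes were KRT2, KRT1, KRT77, KRT76, KRT3, KRT4 and KRT79, and on chromosome 17 KRT24, KRT9, KRT14 and KRT17. KRT78, a keratin of stratified epithelia, was marked in replicate 1 only, with a fold of 7.11. The 10 genes without the mark in either replicate include KRT5 and KRT10, the KRT6 genes, KRT13, KRT15 and KRT16.

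KRT1 and KRT76 were the epidermal keratins with the broadest cover in replicate 1. KRT1, the partner of KRT10 above the basal layer (chr12:52674736-52680407), had folds of 14.95 in replicate 1 and 14.53 in replicate 2, above 95.4% and 96.2% of the peaks of their lists. Peaks filled 99.8% and 44.0% of KRT1 with 2 kb on either side. KRT76 had folds of 14.24 and 14.20 and cover of 94.5% and 99.2%. At both genes the strongest peaks of the 2 replicates had nearly the same fold, but their summits lay at different places. At KRT76 the replicate 2 peak with its summit near that of replicate 1 had a fold of 10.51. The cover of KRT1 was lower in replicate 2.

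KRT2 and KRT9, a keratin of the upper epidermis and that of palm and sole, were covered widely in both replicates too. KRT2 had cover of 65.4% and 88.9% with folds of 10.96 and 5.19. KRT9 had cover of 60.1% and 92.5% with folds of 13.04 and 14.50. KRT3, the keratin of the cornea, and KRT4, that of the oesophagus, were covered at 18.1% and 14.2% in replicate 1 but at 95.4% and 93.0% in replicate 2. The folds were 14 and 7.17 at KRT3, and 10.84 and 8.74 at KRT4.

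KRT79, KRT77 and KRT24 complete the epidermal genes of the 2 long marked stretches. KRT79 had 10.1% in replicate 1 and 49.7% in replicate 2, with folds of 10.14 and 8.74, the second from a peak that it shares with KRT4. KRT77 had 13.5% and 6.63%, with folds of 9.13 and 9.01. KRT24 had 39.3% and 65.3%, with folds of 14 and 10.65. KRT77 was the least covered of the 3 in replicate 2 and KRT79 in replicate 1.

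The basal pair KRT5 and KRT14 differed. KRT5 (chr12:52514575-52520394) had no peak in any of the 8 libraries, and the nearest H3K27me3 peak above it began 26.7 and 43.4 kb away. KRT14 (chr17:41582279-41586895) was marked in both replicates, with folds of 18.83 and 4.36, but the peaks lay below its lower end and covered 18.2% and 19.6%. KRT17, which is made in hair follicles and injured skin, was likewise marked below its lower end, with folds of 9.50 and 5.07 and cover of 11% and 12.3%. No RefSeq promoter was at hand for KRT14 or KRT17, so their marks were not placed relative to a transcription start. KRT16 lies between them and had none. KRT14, KRT16 and KRT17, and also KRT6A, KRT6B and KRT6C, are near-copies of one another, so uniquely mapped reads can be sparse in them, and a missing peak is uncertain there.

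The pair KRT1 and KRT10 differed as well. KRT10 (chr17:40818117-40822614) had no peak in any library, 11.1 and 10.3 kb above the last H3K27me3 peak of its neighbours, whereas KRT1 was covered as given above.

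The root sheath keratins were the class most often marked. H3K27me3 lay at 8 of 9 genes in replicate 1, at 7 in replicate 2 and at 7 in both, which is 88.9%, 77.8% and 77.8% against 7.70%, 19.1% and 6.75% of all protein-coding genes. Peaks filled 46.0% and 55.1% of these genes with 2 kb on either side, against 2.59% and 4.69% over all protein-coding genes. KRT75, of the companion layer, was the gene without a mark at its ends, although a peak inside it covered 29.9% in replicate 2. KRT71, an inner root sheath keratin, was marked in replicate 1 alone, with a fold of 12.05 and cover of 38.4%.

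Type II keratins of the inner root sheath lie together before KRT2. KRT74 had folds of 15.88 and 14.42 and cover of 40.4% and 99.1%. KRT72 had cover of 45.2% and 81.0%, and KRT73 of 88.5% and 83.1%. The fold of 16.16 at both KRT72 and KRT73 in replicate 1 comes from a single peak of 16602 bp with 1218 tags, the widest within the type II cluster in that list. Replicate 2 had separate peaks there, with folds of 7.38 at KRT72 and 10.76 at KRT73.

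Type I keratins of the inner root sheath lie together before KRT10. KRT25 had folds of 11.10 and 11.78 with cover of 40.9% and 31.5%. KRT26 had folds of 18.35 and 11.10 with cover of 76.8% and 38.8%, and it was the only keratin gene with a gene-end peak in 3 libraries, since EZH2 replicate 2 had one at its lower end. KRT27 had folds of 14 and 19.27 with cover of 17.9% and 24.1%, but its mark in both replicates was lost with windows of 1 kb. KRT28 had folds of 17.86 and 15.76 with cover of 21.3% and 53.8%.

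At several keratin starts the closest summits of the replicates lay near each other. The closest pair within 2 kb was picked at each start, which favours short distances, and genes other than keratins were not measured. At KRT76 the summits lay 8 bp apart, at positions -419 and -427 from the transcription start. At KRT3 they lay 9 bp apart, at positions -347 and -338. At KRT28 they lay 12 bp apart, 250 and 238 bases into the gene, and at KRT26 25 bp apart. KRT24 and KRT25 also had a summit of each replicate within 2 kb of the start, 174 and 320 bp apart. These 6 are all the keratin genes, of the 34 with a RefSeq start, where both replicates had a summit that near.

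Hair shaft keratins were marked at shares near those of all protein-coding genes. H3K27me3 lay at 1 of 17 genes in replicate 1, a share of 5.88%, and at 4 in replicate 2, a share of 23.5%, against 7.70% and 19.1% of all protein-coding genes. KRT84, a keratin of the tongue and nail, was the only one marked in both replicates (5.88%, against 6.75% of all protein-coding genes). It had folds of 8.60 and 4.41 above its upper end and cover of 8.76% and 18.0%. KRT38, KRT32 and KRT35, neighbours in the type I cluster, were marked in replicate 2 alone, with folds of 10.1, 9.85 and 6.48. KRT31, KRT81 and KRT86 had no peak at their ends in any library, and KRT81 lies within the annotated extent of KRT86. KRT222, a keratin-like gene outside these classes, had folds of 13.04 and 18.19 with cover of 19.8% and 19.6%.

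**Figure D2:**
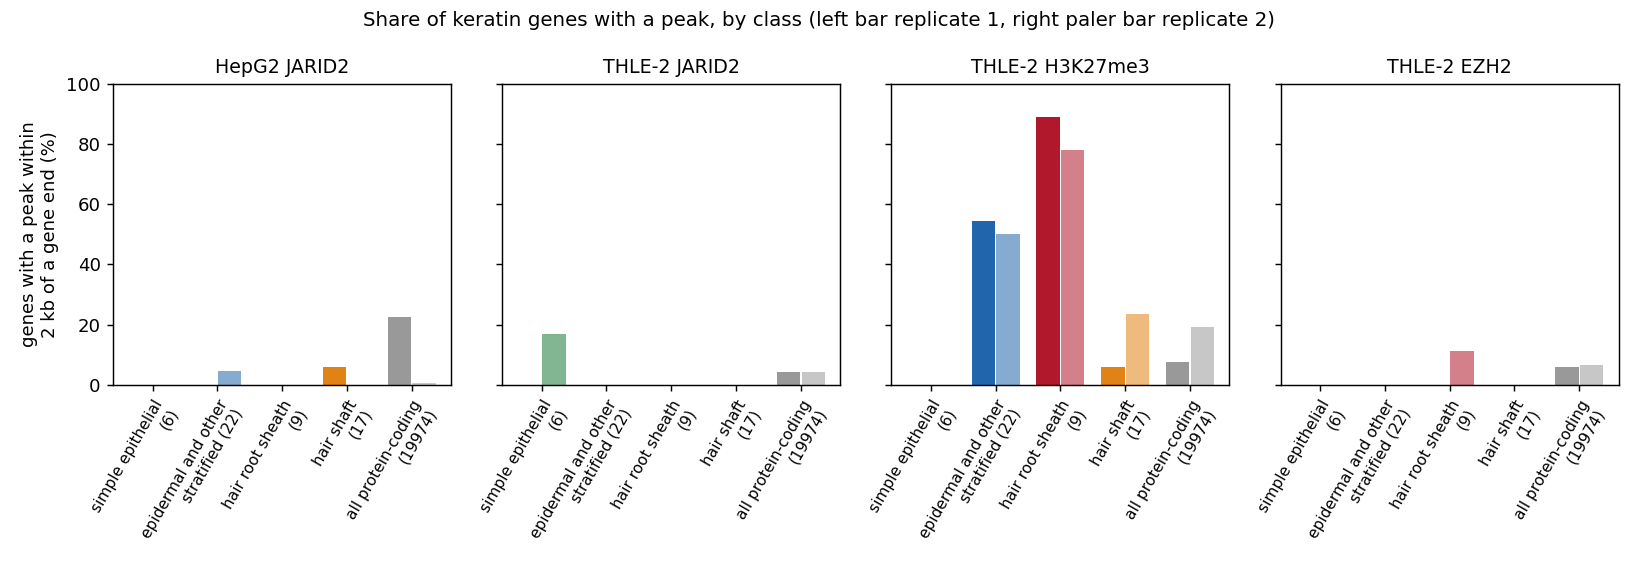
The percent of genes with a peak within 2 kb of a gene end (vertical axis) is shown for 4 keratin classes and all protein-coding genes (horizontal axis, number of genes in brackets), with 1 panel per group, a darker bar for replicate 1 and a paler one for replicate 2. The tall bars are H3K27me3 at root sheath keratins (88.9% and 77.8%) and at epidermal keratins (54.5% and 50%), and the simple epithelial class stays at 0 in that panel.

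Over all 55 genes, 22 had an H3K27me3 gene-end peak in replicate 1 (40.0%, against a background of 7.70%) and 23 in replicate 2 (41.8%, against 19.1%). The 20 marked in both are 36.4%, against 6.75%, and all 20 were marked at the same gene end, which 6.41% of protein-coding genes were. At least 50% of the gene with its 2 kb flanks was covered in both replicates at 4 keratin genes, KRT73, KRT2, KRT76 and KRT9, a share of 7.27% against 0.631%. Taken separately, 6 genes were covered to that extent in replicate 1, against 0.846% of all protein-coding genes, and 10 in replicate 2, against 4.15%. The percent covered per gene had a Spearman rho of 0.79 and a Pearson r of 0.70 between the replicates over the 55 genes, of which 29 stood at 0 in both. Neighbouring genes share peaks, so these points are not independent. Of the 26 others, 18 were covered more in replicate 2 and 8 more in replicate 1.

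**Figure D3:**
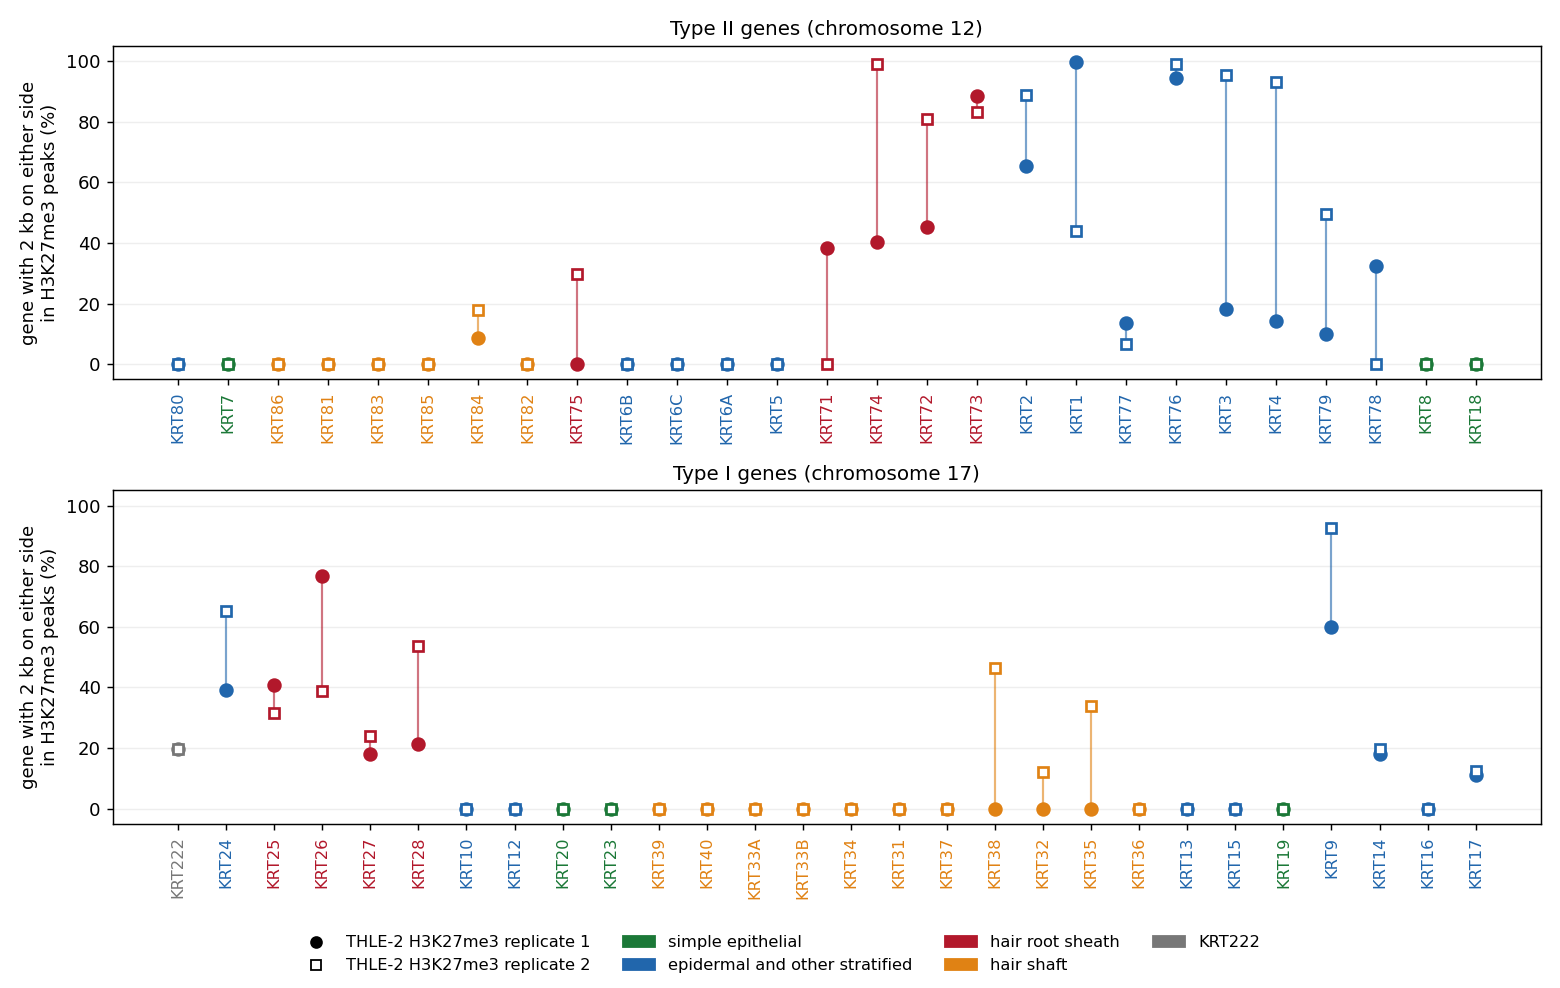
For each keratin gene in cluster order (horizontal axis), the percent of the gene with 2 kb on either side that lies in THLE-2 H3K27me3 peaks (vertical axis) is shown for replicate 1 (filled circle) and replicate 2 (open square), coloured by class. KRT73 and KRT76 are high in both replicates, KRT3 and KRT4 almost only in replicate 2 (95.4% and 93.0%), and the simple epithelial genes stand at 0.

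Along the chromosomes the mark came in stretches with gaps between them. The type II cluster (chr12:52168996-52952906) was covered at 21.9% in replicate 1 and 23.6% in replicate 2, against 3.41% and 5.50% of chromosome 12. The type I cluster (chr17:40654665-41624575) was covered at 9.13% and 11.7%, against 3.75% and 6.69% of chromosome 17. In the type II cluster 70.1% of the bases covered in replicate 1 were covered in replicate 2, and 64.9% the other way round. In the type I cluster these shares were 73.4% and 57.3%.

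The stretches named here were chosen after their values were seen. From KRT71 to KRT78, 12 genes in a row with the mark in at least 1 replicate, 53.6% and 57.0% of 305 kb were covered by 43 and 41 peaks. On the near side of it, from KRT75 to KRT5, cover was 0% and 4.45%, and beyond it from KRT8 to KRT18 it was 0% in both. In the type I cluster the 6 genes from KRT222 to KRT28 had 37.8% and 41.2% of 145 kb covered, and the 4 genes from KRT9 to KRT17 36% and 43.8% of 58.7 kb. The hair keratins from KRT33A to KRT36 had 2.66% and 10.6%.

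Between the marked parts of the type I cluster lay a long gap. In replicate 1 no H3K27me3 peak was called over 646 kb, which hold 12 keratin genes from KRT10 to KRT38. In replicate 2 the gap was broken by 2 peaks within the block of keratin-associated protein genes, where 1.04% of 359 kb was covered, and the pieces on either side spanned 367 and 245 kb. In the type II cluster the first 219 kb in replicate 1 and the first 179 kb in replicate 2, from KRT80 onward, lay before any H3K27me3 peak. The widest gap between neighbouring peaks within that cluster was 157 kb in replicate 1 and 132 kb in replicate 2, both with KRT5 and the KRT6 genes inside. Of 12 keratin pseudogenes in the clusters, 5 within the marked stretches (KRT128P, KRT125P, KRT127P, KRT224P and KRT223P) had the mark in both replicates. KRT126P, also within them, had it in replicate 1 only, and KRT89P and KRT43P had it in replicate 2 only. The share over all pseudogenes was not counted.

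**Figure D4:**
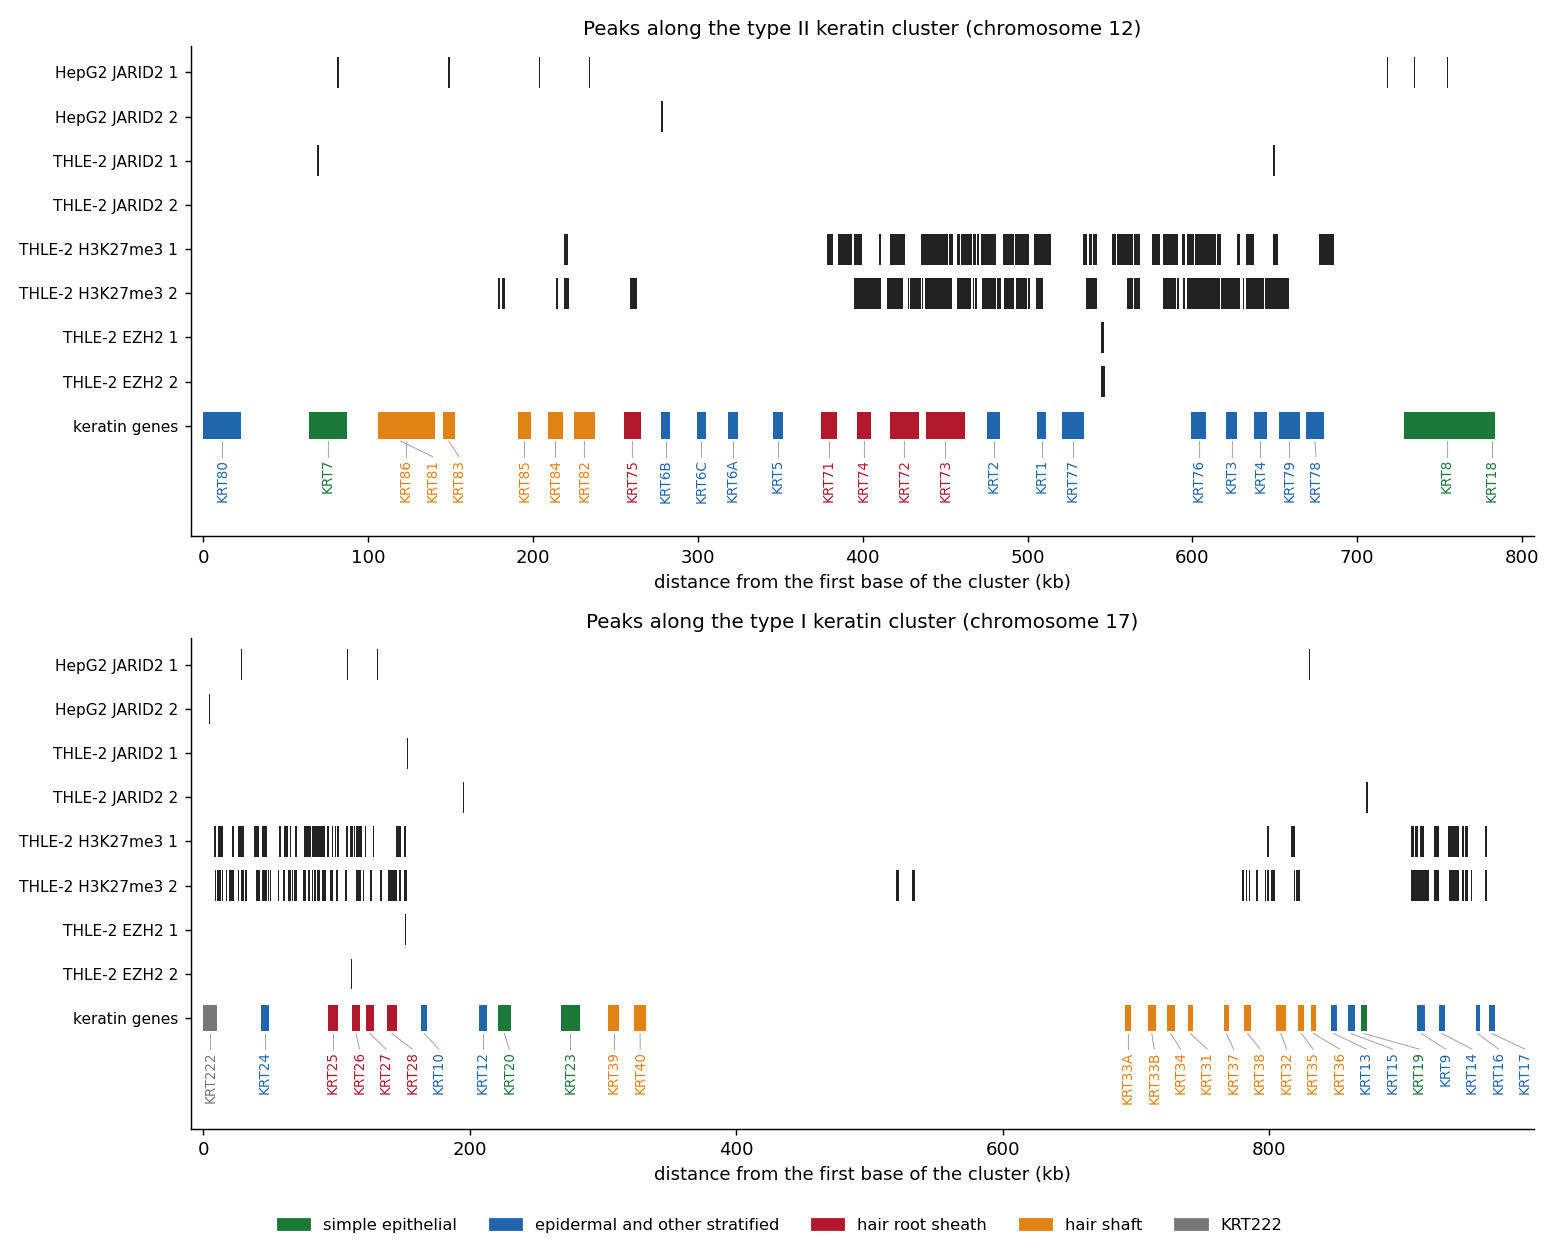
Peaks of the 8 libraries (black, 1 row each) are drawn along the type II and type I clusters, with distance from the first base of the cluster in kb on the horizontal axis and keratin genes coloured by class below. H3K27me3 peaks lie close together, with gaps between them, from KRT71 to KRT78, from KRT222 to KRT28 and from KRT9 to KRT17. JARID2 and EZH2 have 22 scattered peaks in all.

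Within the type II cluster the marked peaks were also wide. Their median width was 2541 and 2869 bp, against 1494 and 1117 bp over the whole lists, and in the type I cluster it was 1518 and 1269 bp. Their median folds of 10.9 and 8.45 in the type II cluster and 11.1 and 9.50 in the type I cluster compare with 9.40 and 8.17 over the lists. The peaks at keratin gene ends held a median of 112 and 164 tags. The false discovery rate the authors' peak caller printed was 100% at every one of these 42 and 52 peaks, as at the median peak of both H3K27me3 lists. Leaving only peaks with a score (the negative log10 of the MACS p, times 10) of at least 100 kept 15 of the 20 genes. That is 27.3% of the keratin genes, against 3.80% of all genes. With the 2081 top-scoring peaks of each list, the size of the shortest, 2 of the 20 remained, KRT73 and KRT1 (3.64%, against 0.360% of all genes).

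EZH2 had 4 peaks in the clusters. They covered 0.268% and 0.340% of the type II cluster, against 0.227% and 0.285% of chromosome 12, and 0.112% and 0.0820% of the type I cluster, against 0.454% and 0.494% of chromosome 17. No keratin gene had an EZH2 peak at an end in replicate 1 (0%, background 5.92%), and KRT26 alone had one in replicate 2 (1.82%, background 6.54%); in both replicates the count was 0, against 4.88%. That peak at KRT26 had 28 tags and a fold of 7.06, lay 111 bp below the gene and overlapped H3K27me3 of replicate 1. The sole EZH2 site found in both replicates within the clusters lay over the pseudogene KRT126P between KRT77 and KRT76 (chr12:52713407-52715503 and chr12:52713361-52716022), with 298 and 357 tags and folds of 6.65 and 4.89. It stood inside the stretch from KRT71 to KRT78 but did not touch the mark: the nearest H3K27me3 peaks were 2031 bp from it in replicate 1 of both targets and 2087 bp in replicate 2 of both. Replicate 1 of EZH2 had a further peak between KRT28 and KRT10 (chr17:40805951-40807040, fold 11.14), which overlapped H3K27me3 in both replicates.

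H3K27me3 exceeded EZH2 in each pairing of their libraries. The share of keratin genes with a peak was 40.9% for H3K27me3 and 0.909% for EZH2 on average, a difference of 40.0 percentage points (exact permutation test over the 4 libraries, two-sided, p = 0.333, adjusted 0.750 over the 9 differences). The type II cluster was covered at 21.9% and 23.6% by H3K27me3, and at 0.268% and 0.340% by EZH2 (difference 22.4 points, exact p = 0.333, adjusted 0.750), and the type I cluster at 9.13% and 11.7%, and at 0.112% and 0.0820% (difference 10.3 points, exact p = 0.333, adjusted 0.750). With 2 libraries against 2 no smaller p than 0.333 can be reached, so none of the 9 differences can pass a threshold of 0.05. The H3K27me3 lists hold over 10 times as many peaks as the EZH2 lists. Restricted to the 2081 top peaks per list, the first difference fell to 8.18 points, the second to 6.74 and the third to 0.832.

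JARID2 lay at the ends of 1 keratin gene or none in each library of both lines. HepG2 replicate 1 had a peak at KRT36, a hair shaft keratin, with 12 tags and a fold of 9.18 (1.82% of the genes, background 22.5%). HepG2 replicate 2 had a peak at KRT6B with 14 tags and a fold of 9.07 (1.82%, background 0.716%). THLE-2 replicate 1 had none (0%, background 4.21%), and replicate 2 had the peak at KRT19 (1.82%, background 4.38%). No gene recurred, and the count for both replicates was 0 in HepG2 and 0 in THLE-2, against 0.165% and 0.355% of all genes.

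For JARID2 between the lines the test could not decide, since 2 libraries against 2 give no p below 0.333. The share of genes with a peak averaged 1.82% in HepG2 and 0.909% in THLE-2 (difference 0.909 points, exact p = 1.000, adjusted 1.000). The type II cluster was covered at 0.613% and 0.0654% in the HepG2 replicates, and at 0.174% and 0% in THLE-2 (difference 0.252 points, exact p = 0.667, adjusted 1.000). Without HepG2 replicate 1, which has 7 of the 8 HepG2 peaks there, this difference became -0.0216. The type I cluster was covered at 0.210% and 0.0578% in HepG2, and at 0.0862% and 0.138% in THLE-2 (difference 0.0221 points, exact p = 1.000, adjusted 1.000).

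Within THLE-2, both JARID2 and EZH2 had few peaks at the keratins. The share of genes was 0.909% on average for each (difference 0, exact p = 1.000, adjusted 1.000). The type II cluster was covered at 0.0871% by JARID2 and 0.304% by EZH2 (difference -0.216 points, exact p = 0.333, adjusted 0.750), and the type I cluster at 0.112% and 0.0972% (difference 0.0149 points, exact p = 0.667, adjusted 1.000). A JARID2 peak of replicate 1 (chr17:40807579-40808414, fold 10.45) lay next to the EZH2 peak between KRT28 and KRT10, at the upper border of the marked stretch. A further JARID2 peak of replicate 1, between KRT4 and KRT79 (chr12:52818191-52818817, fold 9.90), overlapped H3K27me3 in both replicates.

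Regulators of stratified epithelium and hair, transcription and splicing factors of epithelial cells, were counted in the same way. H3K27me3 lay at 4 of 21 in both replicates (19.0%, background 6.75%) and EZH2 at 10 (47.6%, background 4.88%). OVOL1, an epithelial repressor, had no H3K27me3 peak and EZH2 folds of 16.43 and 9.49. OVOL2, its relative, had H3K27me3 folds of 6.64 and 7.21 and EZH2 folds of 14.25 and 7.29. LEF1, a hair follicle factor of the WNT pathway, had EZH2 folds of 8.28 and 8.05, GRHL2, an epithelial activator, 8.87 and 6.76, and HOXC13, an activator of hair keratins, 7.13 and 6.37. These 3 had H3K27me3 in replicate 2 alone. TFAP2C, MSX2 and ESRP1 had both H3K27me3 and EZH2 in both replicates.

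Other intermediate filament genes and filament partners were counted in the same way, against 6.75% of all protein-coding genes for H3K27me3, 4.88% for EZH2 and 0.165% for HepG2 JARID2, each in both replicates. Of 15 other intermediate filament genes, INA and NEFL of nerve cells and BFSP1 of the lens had H3K27me3 in both replicates (20%), with folds of 11.82 and 15.76, 8.69 and 12.52, and 14.97 and 9.61. NEFH, NEFL and PRPH, all of nerve cells, had EZH2 in both (20%), with folds of 8.37 and 5.21, 6 and 7.80, and 4.85 and 4.63. VIM, the filament gene of mesenchymal cells, had no gene-end peak in any library. Of 23 partners of the desmosome, hemidesmosome and cornified layer, TCHH and TGM3, both of hair and cornified layer, had H3K27me3 in both replicates (8.70%), and the desmosomal cadherins DSC2 and DSC3 had EZH2 in both (8.70%). At 2 of 23 genes each, these shares lie near those of all genes. PKP2, a desmosomal plaque protein, had JARID2 in both HepG2 replicates, with folds of 8.53 and 9.29.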

How the data were processed

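ChIP-seq peak lists of 8 libraries were used, each called by the authors against its own input. GRCh38 as build and cutadapt, Bowtie2 and MACS 1.4.2 as tools are given in the submitters' processing notes. Per the file headers, the p cutoff was 1e-05, duplicates were limited to 1 tag at a position, and the larger library was scaled down. Columns of the deposited lists hold a tag count, a score (the negative log10 of the MACS p times 10), a fold (ratio) over local input and a false discovery rate in percent. Per the labels' protocols, chromatin was sheared to 200 to 500 bp. Replicates were not pooled. A gene without a peak is one where none was called.

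Peaks on chromosomes 1 to 22 and X were set against the RefSeq annotation of GRCh38.p14 with Python 3.11.15 and numpy 2.4.6, using an overlap of at least 1 bp. The fold of a gene is that of its strongest gene-end peak and ranks peaks within a list only. The overlap code was tested on simulated data. Group differences in percent were tested by exact permutation of libraries with Benjamini-Hochberg adjustment over 9 differences. The members, classes, companion lists and alternatives were chosen with earlier results of these data known. Genes named with values are those with a peak in both replicates of a group or in 3 libraries, 11 fixed keratins, up to 5 genes of each companion list per group, and VIM. Genes singled out beyond this were chosen after their values were seen.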

Additional observations from a re-analysis of the deposited data

How the results depend on the processing

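The 20 keratin genes with H3K27me3 in both replicates are 36.4%, against a background of 6.75% of all protein-coding genes. They became 19 with windows of 1 kb (34.5%, background 5.22%), 24 with 5 kb (43.6%, background 11.3%) and 20 over the whole gene (36.4%, background 14.4%). With a score of at least 100 they became 15 (27.3%, background 3.80%). With 50% of the peak in the window they became 14 (25.5%, background 4.74%), and with its summit there 15 (27.3%, background 4.85%). Within 2 kb of a transcription start they became 10 of the 34 genes with a RefSeq start (29.4%, background 4.28%). KRT72, KRT1, KRT77, KRT222, KRT14 and KRT17 have no such start, so they could not count. KRT84, KRT74, KRT4 and KRT79 have one and were lost. With the 2081 top peaks per list 2 remained (3.64%, background 0.360%). A single replicate gave 22 to 23 (40.0% and 41.8% for replicates 1 and 2, background 7.70% and 19.1%). Per replicate, the start window left 11 and 14 and the top peaks 6 and 3. The remaining counts are near 0, so they moved easily. HepG2 JARID2 replicate 1 had 0 genes with 1 kb windows, the start window, a score of 100 or the top peaks, 7 with 5 kb and 5 over the whole gene. HepG2 JARID2 replicate 2 had 2 with 5 kb and over the whole gene (3.64%, backgrounds 1.58% and 6.92%). It had 0 at starts (background 0.398%) or with a score of 100 (0.0200%). THLE-2 JARID2 replicate 1 had 3 with 5 kb (5.45%, background 6.59%) and 1 over the whole gene (1.82%, background 13.9%). THLE-2 JARID2 replicate 2 fell to 0 at starts, with a score of 100 or with the top peaks (backgrounds 3.67%, 0.275% and 2.33%). EZH2 replicate 2 did so too (backgrounds 5.74%, 5.02% and 5.89%). From 1 replicate in place of both, HepG2 JARID2 gave 1 gene (1.82%, backgrounds 22.5% and 0.716% for replicates 1 and 2). THLE-2 JARID2 (backgrounds 4.21% and 4.38%) and EZH2 (5.92% and 6.54%) each gave 0 to 1.

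For the share of genes, HepG2 minus THLE-2 JARID2 was 4.55 with 5 kb and over the whole gene, 0 with 1 kb, at starts and with a score of 100, and 0 to 1.82 when a library was left out. JARID2 minus EZH2 in THLE-2 was 2.73 with 5 kb, 0.909 over the whole gene, 0 under the other windows and peak choices, and -0.909 to 0.909 when a library was left out. For cluster cover, HepG2 minus THLE-2 JARID2 was 0 in both clusters with a score of 100. With the top peaks it was 0.0327 in the type II and -0.0142 in the type I cluster, with 100 kb added 0.106 and -0.0347, and over type I keratin genes only 0.0635. Leaving out a library gave -0.0216 to 0.526 in the type II and -0.0542 to 0.0984 in the type I cluster. JARID2 minus EZH2 was 0.0137 in the type II cluster with 100 kb added, and in the type I cluster 0.136 with 100 kb added, 0 with a score of 100, -0.0131 with the top peaks, -0.0197 over keratin genes only and -0.0110 to 0.0408 when a library was left out. The cause was not tested. H3K27me3 minus EZH2 kept its sign under every alternative run, but with the top peaks fell to 8.18, 6.74 and 0.832 points.

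The labels link replicates of different groups by number alone. The correlation of their deviations was -0.02, -0.03 and 0.02 over 19974 genes. Most of these genes had no H3K27me3 cover (16943 in replicate 1 and 14999 in replicate 2), so this could hardly show a shared batch. With the replicate block, H3K27me3 minus EZH2 was 40.0, 22.4 and 10.3 points (exact sign-flip p = 0.500 each, the smallest 2 pairs allow), and JARID2 minus EZH2 was 0 for the share of genes. No p below 0.333 without the block or 0.500 with it can be reached, so the block could not change a call. Over 29 named genes, 177 of 221 recomputed values left the number of libraries with a peak within 1.5 times, 41 lowered it further and 3 raised it further. The 29 include fixed keratins without a gene-end peak in any library, such as KRT5, KRT10 and KRT31. There, 0 staying at 0 counted among the 177, which is thus no measure of how stable the marked genes are. The JARID2 and EZH2 peaks at keratin gene ends held 12 to 28 tags.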
